A study of Mus musculus with 69 samples.

Results

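The genes described here are 38 genes of epithelial cell junctions and cell polarity in the mouse, namely 15 claudins, 4 other membrane proteins and 3 plaque proteins of the tight junction, 2 cadherins and 5 plaque proteins of the desmosome, 2 envelope plakins, 3 polarity proteins, 2 membrane-bound serine proteases and 2 inhibitors of such proteases. They were taken by gene symbol, and all 38 were found among the 53055 gene IDs that the count tables hold. The RNA came from the pituitary, hypothalamus and ovary of female mice killed in proestrus, in 69 libraries and 18 groups. WT mice have the normal Zeb1 gene, Zeb1_200H mice (200H below) carry 1 knock-in allele of Zeb1 whose 3′ UTR sites for miR-200a and miR-200b are mutated, and Zeb1_200M mice (200M below) carry this allele on both chromosomes and inherit it through the germ line. Young females were virgins aged 8 to 12 weeks, and older females had gone through a breeding trial and were aged 28 to 36 weeks. The knock-in mice go back to the embryonic stem cell clones 3C5 and 6B6. Groups had 4 libraries each, except for 3 in young WT pituitary, older 200M pituitary and older 200M hypothalamus.

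Claudins are the membrane proteins that seal the space between epithelial cells, and occludin, tricellulin and junctional adhesion molecules sit with them in the tight junction, where zonula occludens proteins and cingulin tie them to actin. Desmosomes hold neighbouring cells together through the cadherins desmoglein and desmocollin, which plakoglobin, plakophilins and desmoplakin link to keratin filaments. Crumbs, PAR6 and LGL proteins set the apical and basal sides of the cell, and the protease matriptase, held in check by the inhibitors HAI-1 and HAI-2, acts at the epithelial surface. ZEB1 is a zinc finger repressor that binds E-boxes of the form CACCTG, and several junction genes are classical ZEB1 targets. The hormone-secreting cells of the anterior pituitary are of epithelial origin.

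The E-box of ZEB1, CACCTG or its reverse complement CAGGTG, was looked for on both strands of the promoter windows that RefSeq gives on GRCm38.p6, from 250 bases before to 50 bases after an annotated start. Of the 38 genes, 24 had a window, and 12 of these had at least 1 E-box, beside 22.6% of the 27025 genes with a window and 20.2% of the 32851 windows. Among the 19 genes that were lower in 200M pituitary in both cohorts (below), 11 had a window and 9 of them an E-box (Cldn3, Cldn4, Cldn6, Ocln, Marveld2, F11r, Tjp3, Crb3 and Spint2), while Jup and Spint1 had none. Of the other 19 genes, 13 had a window and 3 an E-box (Cldn7, Dsp and Pard6b). The stretches below are shown because they belong to lowered genes from 4 of the roles, and Crb3 and Spint2 hold the most E-boxes in a window of any of the 24 genes with a window. ZEB1 also binds CAGGTA, and when this or its reverse complement TACCTG was counted too, the only gene added was Cldn1, so that 13 of the 24 genes had a motif, beside 32.5% of all genes with a window. Each stretch is written 5′ to 3′ along the gene, with the E-box in capitals.
Crb3, plus strand, chr17:57062073-57062098: cctgtgcttaCACCTGctcatttccg
Crb3, plus strand, chr17:57062128-57062153: gttcccgttaCAGGTGctctggcggc
Crb3, plus strand, chr17:57062184-57062209: cagccaggctCAGGTGcacaagccgg
Crb3, plus strand, chr17:57062216-57062241: gctctttgccCAGGTGggtgactaaa
Spint2, minus strand, chr7:29282036-29282061: ggggcggtgcCAGGTGcaggccgcag
Spint2, minus strand, chr7:29282017-29282042: gccgcagagcCAGGTGcggggccctc
Spint2, minus strand, chr7:29281971-29281996: cccgccccgcCAGGTGcgccccaccc
Cldn4, minus strand, chr5:134946933-134946958: ttaactgcagCACCTGtggccgccct
Cldn4, minus strand, chr5:134946908-134946933: tttcttgttgCAGGTGcaggcaggaa
Cldn6, plus strand, chr17:23679262-23679287: gaaacgcacgCAGGTGgctatcgccg
Ocln, minus strand, chr13:100552696-100552721: atcggagtttCAGGTGaatgggtcac
The 4 E-boxes of Crb3 start 118, 63 and 7 bases before and 25 bases after the annotated start, and the 3 of Spint2 start 74, 55 and 9 bases before it. Those of Cldn4 lie 14 bases before and 11 bases after the start. Cldn6 and Ocln each held another E-box that is not shown. A match of letters shows neither binding nor an effect, and an absent match says nothing about sites outside these windows.

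Total counts per library, in units of 1000000, were 7.56 to 13.3 in young and 4.53 to 13.0 in older pituitary, 3.32 to 5.14 in young and 10.2 to 13.9 in older hypothalamus, and 6.34 to 12.9 in young and 7.99 to 14.7 in older ovary. Levels are given as counts per 1000000 counts (CPM), and ± is the SD across libraries for a level and the SE for a log2 fold change, also called log2 change below. Zeb1 itself was higher in mutant pituitary in each cohort. In young pituitary it was at 98.5, 93.9 and 94.3 CPM in WT, 136, 130, 128 and 127 CPM in 200H and 133, 137, 145 and 136 CPM in 200M, a log2 change of 0.44 ± 0.07 in 200H and 0.52 ± 0.06 in 200M (adjusted p = 0.000895 and 2.39e-05). In older pituitary the values were 0.33 ± 0.08 and 0.55 ± 0.09 (adjusted p = 0.0139 and 0.000833). In hypothalamus every 200M library was below every WT library for Zeb1, but edgeR did not call it in young (-0.17 ± 0.07, adjusted p = 0.871) or older females (-0.26 ± 0.09, adjusted p = 0.161). In 200M ovary the edgeR values were -0.06 ± 0.06 in young and -0.22 ± 0.16 in older females (adjusted p = 0.722 and 0.515). The 8 pituitary hormone and pituitary lineage markers were abundant in pituitary, and their summed level was lower in both mutants, 161154 to 184712 CPM in young WT, 71070 to 99539 in young 200H and 66208 to 88768 in young 200M. Ovary libraries differed widely in 6 oviduct epithelium markers, whose sum ran from 6.84 to 3520 CPM among older ovaries, and the values of each library are given with the ovary results.

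In pituitary, most of the junction and polarity genes had lower RNA levels in Zeb1_200M than in WT females, in each cohort. In young 200M pituitary 21 of the 38 genes were lower and 0 higher (edgeR quasi-likelihood test, adjusted p under 0.05), whereas 10.0% of all genes tested were called lower and 11.5% higher. In older 200M pituitary 21 were lower and 1, Cldn10, was higher, beside 9.77% and 11.7% of all genes. With 1 mutant allele, 17 genes were lower and 0 higher in young pituitary (5.72% and 6.56% of all genes) and 20 in older pituitary (5.14%), where 1 other, Cldn1, was higher (7.09%). Counts were high enough for the test in 33 genes in young and 33 in older 200M pituitary. The median log2 change of those tested was -0.97 in young and -0.71 in older 200M pituitary and -0.72 and -0.83 in 200H, beside medians between -0.01 and 0.01 over all genes. Of the 38 genes, 14 were lower in all 4 comparisons of a mutant with WT pituitary, 6 in 3 of them, 1 in 2 and 3 in 1. Every 200M library lay below every WT library for 21 genes in young pituitary and for 21 in older pituitary, which held for 13.3% and 15.8% of all genes tested.

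These are whole tissues, so fewer cells that express a gene and less RNA of it per cell cannot be told apart. Markers of other cells moved too. Of 8 pituitary markers, 4 were lower and 0 higher in young 200M pituitary and 3 lower and 1 higher in older 200M pituitary. Of 5 neuron markers, 3 were higher in young and 5 in older 200M pituitary, with a summed level of 761 to 840 CPM in young WT and 900 to 1026 in young 200M libraries. Of 4 markers of pituicytes and the posterior lobe, 2 and 3 were higher, with sums of 190 to 194 CPM in young WT and 239 to 280 in young 200M. For both lists every young 200M library was above every young WT library. Of 3 melanotrope markers 1 and 2 were higher, with sums of 363 to 463 CPM in young WT and 435 to 580 CPM in young 200M. Of 6 oligodendrocyte markers 1 was lower in each cohort, with sums of 75.7 to 83.9 CPM in young WT and 46.5 to 54.6 CPM in young 200M. Of the 8 endothelial markers, 0 were called in young and 1 was higher in older 200M pituitary. They summed to 232 to 262 CPM in young WT and 271 to 286 CPM in young 200M, also without overlap. In the older cohort the sums were 244 to 332 CPM in WT and 282 to 350 CPM in 200M. Of 6 markers of pituitary stem cells, 0 were called in young and 1 was higher in older 200M pituitary. Their sums overlapped, at 145 to 170 CPM in young WT and 161 to 179 CPM in young 200M, and at 236 to 314 and 264 to 310 CPM in the older cohort. The part of any of these in the junction gene results was not tested. When libraries were scaled by total counts alone, the median of all genes in the mutant comparisons moved to between 0.12 and 0.16, and the split of all called genes went from 1820 lower and 2093 higher to 1083 and 3589 in young 200M pituitary and from 1437 and 1716 to 635 and 3338 in older 200M pituitary. With that scaling 21 of the 38 genes were still lower in young and 18 in older 200M pituitary, and 2 were higher in each, Cldn10 and Cldn12 in young and Cldn10 and Tjp1 in older pituitary.

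**Figure D1:**
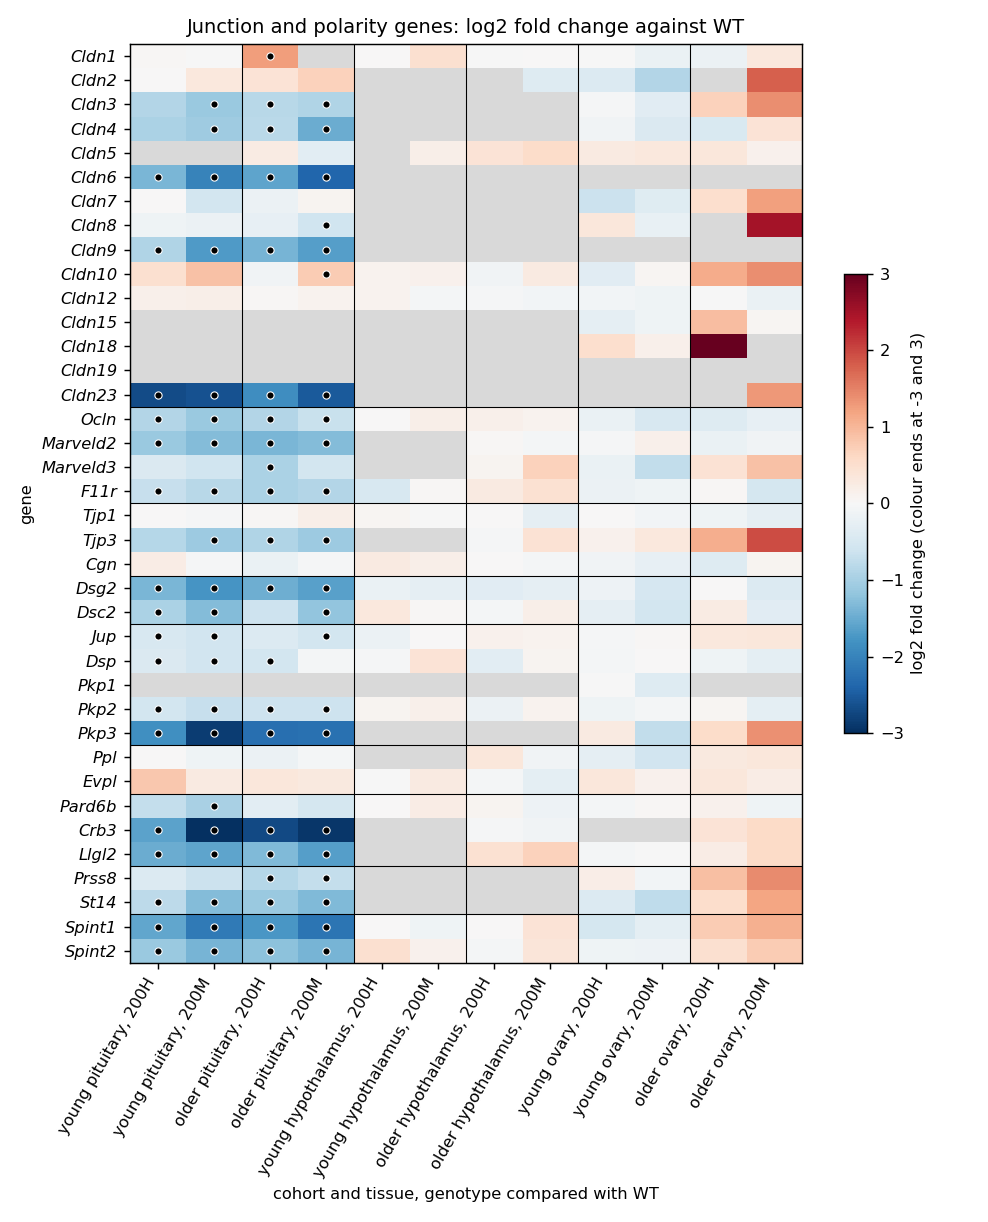
Heat map of the log2 fold change against WT (colour, blue lower, red higher) of 38 junction and polarity genes (rows, grouped by role) in 12 comparisons (columns), with a dot where edgeR's adjusted p was under 0.05 and grey where counts were too few for the test. Dots stand in the 4 pituitary columns and in no hypothalamus or ovary column.

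Among the 15 claudins, Cldn3, Cldn4, Cldn6, Cldn9 and Cldn23 were lower in 200M pituitary in both cohorts. Cldn23 changed most by log2 fold change. It was at 3.37, 3.96 and 2.85 CPM in young WT, 0.348, 0.258, 1.21 and 0.311 CPM in 200H and 0.310, 0.333, 0.600 and 1.11 CPM in 200M libraries, and in the older cohort at 5.80, 9.90, 7.81 and 5.69 CPM in WT, 2.09, 1.81, 2.77 and 1.59 CPM in 200H and 1.05, 1.81 and 0.614 CPM in 200M. All mutant libraries of a cohort were below all WT libraries, while 200H and 200M overlapped. The log2 fold change in 200M was -2.61 ± 0.39 in young and -2.53 ± 0.35 in older pituitary (adjusted p = 0.000244 and 0.000334). Cldn4, a claudin of many simple epithelia, changed least of the 5 in the young cohort. Its levels were 7.36, 2.97 and 7.19 CPM in young WT, 2.43, 2.66, 5.06 and 2.17 in 200H and 2.41, 2.58, 3.22 and 3.08 in 200M, and 1 WT library lay within the range of the 200M libraries. Older females had 9.11, 13.8, 15.0 and 9.52 CPM in WT, 6.75, 7.68, 7.53 and 4.98 CPM in 200H and 4.39, 4.39 and 3.48 CPM in 200M, with no overlap between any 2 genotypes. The log2 fold changes in 200M were -1.06 ± 0.28 and -1.50 ± 0.23 (adjusted p = 0.0148 and 0.000837). Without either of the higher young WT libraries (replicate 1 and the unnumbered library, given last) the young call was lost (highest adjusted p = 0.0931).

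Cldn6, a claudin known from embryonic epithelia, fell 4.02-fold in young and 5.25-fold in older 200M pituitary, from 11.9 ± 3.26 to 3.04 ± 0.844 CPM and from 10.8 ± 1.13 to 1.99 ± 0.668 CPM. Cldn9, its close relative, fell 3.24-fold and 3.16-fold, from 16.9 ± 0.653 to 5.18 ± 1.13 and from 57.7 ± 9.33 to 18.3 ± 2.40 CPM. Cldn3 fell 2.17-fold and 1.88-fold, and the older call was lost without 200M replicate 2 or 3 (highest adjusted p = 0.0684). In older libraries, which carry no strand, reads at exon positions that Cldn3 shares with a gene on the other strand cannot be assigned to either gene. Cldn8 had the highest level per kb of exon of the claudins in young WT pituitary, 20.5 ± 2.22 CPM per kb. It was lower in older 200M pituitary (log2 fold change -0.59 ± 0.12, adjusted p = 0.00429) but did not pass in young pituitary (-0.18 ± 0.10, adjusted p = 0.244), and the interaction with cohort did not pass (adjusted p = 0.599).

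Some claudins went the other way or stayed near WT. Cldn10, a pore-forming claudin, was at 4.97, 3.85, 4.40 and 4.27 CPM in older WT and 6.90, 6.97 and 8.18 CPM in older 200M pituitary, with every 200M library above every WT library and a log2 change of 0.77 ± 0.19 (adjusted p = 0.0144). In young pituitary it was 0.88 ± 0.34 (adjusted p = 0.0867), and the older call was lost without 200M replicate 3 (adjusted p = 0.0705). Cldn1 passed only in older 200H pituitary, at 0.552, 0.788, 0.801 and 0.657 CPM in WT and 1.74, 1.17, 2.77 and 1.38 CPM in 200H (log2 fold change 1.25 ± 0.35, adjusted p = 0.0355), and the call was lost in 9 of 14 alternative settings, among them without any one WT library or 200H replicate 1, 3 or 4 (highest adjusted p = 0.0843). In older 200M it was at 2.30, 0.774 and 1.84 CPM and did not reach the count filter of that comparison. Cldn12, a claudin without the usual tail motif that binds plaque proteins, had 49.4 ± 2.71 CPM in young WT and 56.1 ± 4.36 CPM in young 200M pituitary (log2 fold change 0.18 ± 0.09, adjusted p = 0.184). Cldn7 had log2 changes of -0.56 ± 0.25 and 0.08 ± 0.31 (adjusted p = 0.134 and 0.892), and Cldn2, which forms cation pores, of 0.31 ± 0.27 and 0.69 ± 0.30 (adjusted p = 0.465 and 0.129). Cldn5, the main claudin of blood vessels, was tested in older pituitary only, at -0.32 ± 0.53 (adjusted p = 0.716), and its WT mean was 0.247 CPM in young and 1.73 CPM in older pituitary. Cldn15, Cldn18 and Cldn19 had too few counts in pituitary, with at most 1.20 CPM in any library.

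Of the 4 genes of other tight junction membrane proteins, Ocln, Marveld2 and F11r were lower in both mutants and both cohorts. Marveld2 encodes tricellulin, which closes the corners where cells meet in a point. It was at 7.16, 12.1 and 5.82 CPM in young WT, 4.87, 3.52, 3.54 and 3.52 CPM in 200H and 4.11, 4.25, 2.32 and 2.71 CPM in 200M. The older libraries had 10.9, 11.3, 12.4 and 12.3 CPM in WT, 4.07, 4.58, 4.16 and 4.98 CPM in 200H and 4.60, 5.16 and 4.09 CPM in 200M. Mutant and WT libraries did not overlap in either cohort, and the log2 fold change in 200M was -1.31 ± 0.28 in young and -1.31 ± 0.17 in older pituitary (adjusted p = 0.00323 and 0.000242). F11r encodes the junctional adhesion molecule JAM-A. Its levels were 17.4, 20.3 and 14.5 CPM in young WT, 13.0, 7.90, 10.0 and 12.1 in 200H and 9.54, 10.5, 9.67 and 9.62 in 200M, and 40.6, 40.8, 41.2 and 42.5 CPM in WT, 21.8, 22.4, 21.4 and 19.1 CPM in 200H and 22.0, 19.1 and 26.4 CPM in 200M. Here too no mutant library reached the WT range, with log2 changes in 200M of -0.83 ± 0.14 and -0.87 ± 0.12 (adjusted p = 0.000496 and 0.000343). Ocln, which encodes occludin, fell 2.17-fold in young and 1.59-fold in older 200M pituitary (adjusted p = 1.57e-05 and 0.0172), and the older call was lost with total counts alone or without 200M replicate 1 or 3 (highest adjusted p = 0.0762). Marveld3, a relative of both, was lower in older 200H alone (-0.94 ± 0.25, adjusted p = 0.0284) and had -0.60 ± 0.31 and -0.54 ± 0.29 in 200M (adjusted p = 0.196 and 0.209).

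Tjp3, which encodes ZO-3, was lower in 200M pituitary of both cohorts, and Tjp1 and Cgn, which encode ZO-1 and cingulin, passed in no pituitary comparison. Tjp3 was at 4.19, 5.39 and 3.70 CPM in young WT, 2.09, 2.15, 3.44 and 2.28 CPM in 200H and 2.87, 0.916, 2.10 and 2.47 CPM in 200M. Older pituitaries stood at 8.42, 7.36, 8.81 and 11.9 CPM in WT, 3.96, 6.50, 4.56 and 4.35 CPM in 200H and 4.18, 4.77 and 3.68 CPM in 200M. WT libraries were the highest in each cohort, without overlap, and the log2 fold change in 200M was -1.09 ± 0.32 and -1.08 ± 0.23 (adjusted p = 0.0230 and 0.00529). The young call was lost without WT replicate 1 or 2 or 200M replicate 3 (highest adjusted p = 0.0921). In the unstranded older libraries, reads at exon positions that Tjp3 shares with Apba3 on the other strand cannot be assigned to either gene by strand. Tjp1 was by contrast at 157 ± 9.52 CPM in young WT and 155 ± 3.65 CPM in young 200M pituitary, a log2 change of -0.03 ± 0.07 (adjusted p = 0.802). In older pituitary it was 0.17 ± 0.09 (adjusted p = 0.225), and Cgn was -0.04 ± 0.19 and -0.03 ± 0.14 (adjusted p = 0.914 and 0.90).

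Both desmosomal cadherin genes were lower in 200M pituitary. Dsg2, which encodes the desmoglein of simple epithelia, was at 104, 106 and 102 CPM in young WT, 42.0, 41.6, 40.7 and 39.7 CPM in 200H and 28.2, 28.7, 32.0 and 33.1 CPM in 200M, so that all 3 genotypes were apart. In the older cohort the levels were 61.7, 65.3, 67.4 and 61.3 CPM in WT, 22.2, 25.3, 23.8 and 21.2 CPM in 200H and 21.6, 19.1 and 21.3 CPM in 200M. There the mutants were below WT and overlapped each other. In these unstranded libraries, reads at exon positions that Dsg2 shares with a gene on the other strand cannot be assigned to either gene. Dsg2 fell 3.44-fold in young and 3.08-fold in older 200M pituitary (log2 fold change -1.78 ± 0.08 and -1.62 ± 0.10, adjusted p = 2.69e-09 and 6.48e-07). Dsc2, its desmocollin partner, was at 25.0, 19.7 and 27.9 CPM in young WT, 13.6, 14.2, 11.7 and 10.5 CPM in 200H and 11.2, 11.6, 8.62 and 8.14 CPM in 200M, with a log2 change in 200M of -1.29 ± 0.15 (adjusted p = 2.14e-05). Older females had 19.2, 17.6, 16.8 and 7.11 CPM in WT, 10.2, 6.82, 10.7 and 11.8 CPM in 200H and 6.28, 6.97 and 6.34 CPM in 200M. WT replicate 4 stood just above the 200M range and inside that of 200H, and the 200M call (-1.19 ± 0.30, adjusted p = 0.0162) was lost when any 200M library was left out (highest adjusted p = 0.0597).

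In the desmosomal plaque, Pkp3, Pkp2 and Jup were lower in 200M pituitary of both cohorts and Dsp in the young cohort. Pkp3, the plakophilin found in most epithelia, was at 4.29, 4.40 and 3.28 CPM in young WT, 0.956, 1.55, 1.11 and 0.828 CPM in 200H and 0.698, 0.333, 0.375 and 0.864 CPM in 200M. The older libraries had 11, 10.4, 9.41 and 12.8 CPM in WT, 2.91, 1.81, 1.78 and 2.44 CPM in 200H and 2.51, 2.06 and 2.45 CPM in 200M. All mutants were far below WT, 7.23-fold in young and 4.69-fold in older 200M (log2 fold change -2.85 ± 0.35 and -2.23 ± 0.21, adjusted p = 4.01e-05 and 2.13e-05). Jup encodes plakoglobin, which adherens junctions also use. It was at 85.7, 72.5 and 72.1 CPM in young WT, 56.4, 58.1, 54.6 and 50.2 CPM in 200H and 49.9, 53.7, 51.2 and 53.2 CPM in 200M, without overlap between WT and mutants (200M log2 fold change -0.57 ± 0.08, adjusted p = 0.000119). Older pituitaries stood at 79.6, 91.3, 89.1 and 84.0 CPM in WT, 64.0, 48.5, 82.4 and 62.9 CPM in 200H and 68.4, 55.8 and 51.1 CPM in 200M, where 200M stayed below WT (-0.55 ± 0.11, adjusted p = 0.00344) and 1 200H library reached the WT range. Pkp2 fell 1.61-fold and 1.55-fold in 200M (adjusted p = 0.00383 and 0.0147), and the older call was lost with total counts alone or without 200M replicate 1 or 2 (highest adjusted p = 0.0793). Dsp, which encodes desmoplakin, was -0.58 ± 0.11 in young 200M (adjusted p = 0.00157) and -0.05 ± 0.11 in older 200M (adjusted p = 0.778), but -0.56 ± 0.11 in older 200H (adjusted p = 0.00644). Pkp1, a plakophilin of stratified epithelia, had too few counts, and the plakins periplakin (Ppl) and envoplakin (Evpl), which belong to the cornified envelope, passed in no pituitary comparison, with Ppl at -0.14 ± 0.12 and -0.07 ± 0.12 and Evpl at 0.26 ± 0.40 and 0.30 ± 0.25 in 200M.

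Of the 3 polarity genes, Crb3 and Llgl2 were lower in both mutants and both cohorts. Crb3 encodes the Crumbs protein of epithelia and had the most negative log2 change of those of the 38 genes tested in 200M against WT pituitary of each cohort. It was at 3.07, 2.20 and 2.01 CPM in young WT, 0.782, 0.859, 0.911 and 0.621 CPM in 200H and 0, 0.333, 0.0750 and 0.617 CPM in 200M. These rest on 19 to 30 counts per WT library and 0 to 5 counts per 200M library, so the size of the young change (log2 fold change -3.40 ± 0.58, adjusted p = 0.000685) is imprecise. In older pituitary Crb3 was at 9.66, 15.6, 12.0 and 13.9 CPM in WT, 1.98, 2.03, 2.38 and 1.59 CPM in 200H and 2.51, 1.29 and 1.43 CPM in 200M. Both mutants were again far below WT and overlapped each other, at -2.71 ± 0.21 in 200H and -2.92 ± 0.27 in 200M (adjusted p = 3.33e-06 and 1.85e-05). In the unstranded older libraries Crb3 shares exon positions with Dennd1c on the other strand. Llgl2, the LGL protein of epithelia, was at 19.0, 19.6 and 16.6 CPM in young WT, 6.52, 5.75, 8.10 and 6.21 CPM in 200H and 5.74, 6.24, 6.82 and 5.92 CPM in 200M. In the older cohort the levels were 29.5, 34.2, 37.4 and 33.9 CPM in WT, 13.3, 12.7, 12.5 and 15.1 CPM in 200H and 10.0, 10.8 and 10.6 CPM in 200M. WT was above both mutants in each cohort, and 200M fell 2.98-fold and 3.17-fold (adjusted p = 1.00e-06 and 2.89e-06). Pard6b, a PAR6 protein that joins the atypical protein kinase C complex, was -0.97 ± 0.22 in young 200M (adjusted p = 0.00561) and -0.53 ± 0.27 in older 200M (adjusted p = 0.184).

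The RNA levels of the protease matriptase (St14) and of its inhibitors HAI-1 (Spint1) and HAI-2 (Spint2) fell together. St14 was at 21.5, 22.2 and 21.6 CPM in young WT, 16.7, 12.1, 10.2 and 11.5 CPM in 200H and 10.3, 7.99, 8.10 and 9.5 CPM in 200M. Older females had 35.6, 39.4, 39.4 and 40.7 CPM in WT, 14.9, 15.2, 22.6 and 19.8 CPM in 200H and 18, 15.9 and 11.9 CPM in 200M. No mutant library reached WT, and the log2 fold change in 200M was -1.29 ± 0.13 and -1.33 ± 0.13 (adjusted p = 4.81e-06 and 3.11e-05). Spint1 was at 46.4, 44.8 and 44.6 CPM in young WT, 15.5, 12.8, 19.1 and 14.5 CPM in 200H and 12.3, 10.2, 8.77 and 10.1 CPM in 200M. The older libraries had 71.8, 88.8, 64.6 and 92.4 CPM in WT, 22.2, 25.9, 25.8 and 21.5 CPM in 200H and 15.9, 20 and 14.9 CPM in 200M. In each cohort the 3 genotypes did not overlap, and Spint1 fell 4.39-fold and 4.61-fold in 200M (log2 fold change -2.13 ± 0.11 and -2.20 ± 0.15, adjusted p = 8.24e-09 and 1.01e-06). Spint2 had the highest level per kb of exon of the 38 genes in older WT pituitary. It was at 85.8, 85.0 and 88.6 CPM in young WT, 37.4, 43.4, 39.6 and 40.5 CPM in 200H and 36.1, 31.2, 35.9 and 28.1 CPM in 200M. Older pituitaries stood at 316, 406, 343 and 334 CPM in WT, 159, 148, 155 and 129 CPM in 200H and 127, 144 and 123 CPM in 200M. WT libraries were all above the mutants, with log2 changes in 200M of -1.40 ± 0.08 and -1.40 ± 0.10 (adjusted p = 3.37e-08 and 1.46e-06). Prss8, which encodes prostasin, a protease that acts with matriptase, was lower in older pituitary (-0.71 ± 0.22 in 200M and -0.85 ± 0.20 in 200H, with adjusted p-values of 0.0351 and 0.0160) and did not pass in young 200M (-0.65 ± 0.25, adjusted p = 0.0761). Its older 200M call was lost in 6 of 13 alternative settings, namely DESeq2, total counts alone, and without any one of the 200M libraries or WT replicate 2. Older reads at exon positions that Prss8 shares with Kat8 on the other strand cannot be assigned to either gene by strand.

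**Figure D2:**
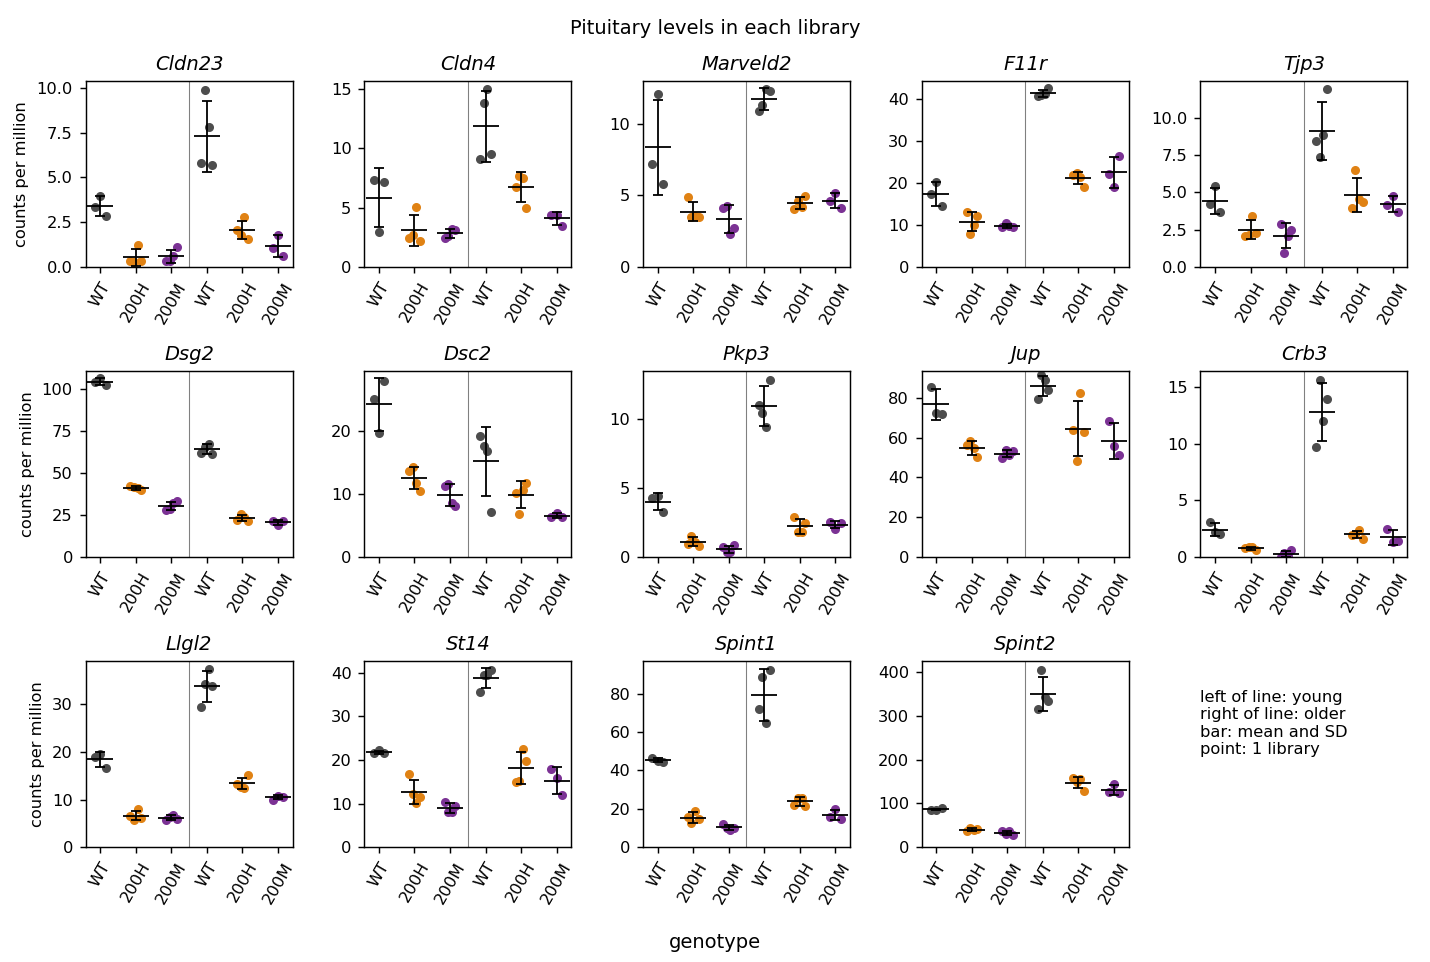
Pituitary level in CPM (vertical axes, from 0) of 14 lowered genes in each library (points), by genotype (horizontal axes) and cohort, with the mean and SD as bars. WT libraries sit above the 200M libraries in every panel of both cohorts except young Cldn4, where 1 WT library lies within the 200M range.

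The design also asks whether 2 mutant alleles change the genes more than 1. Both mutant comparisons use the same WT libraries, so the direct comparison of 200M with 200H is the test. It called 0 of the 38 genes in either cohort, beside 0.0383% of all genes in young and 0.121% in older pituitary. At an unadjusted p under 0.05 there were 9 of 31 genes tested in the young cohort and 7 of 34 in the older one, beside 5.92% and 10.6% of all genes. By DESeq2 it was 1 gene in young pituitary, Dsg2 (log2 difference -0.43, adjusted p = 0.00529), beside 0.287% of all genes, and 0 in older pituitary. In young pituitary 28 of 31 genes had a lower estimate in 200M than in 200H, with a median of -0.23, while 50.7% of all genes did. In older pituitary it was 20 of 34 with a median of -0.10, beside 51.0% of all genes. Young differences included those of Cldn9 (-0.80 ± 0.18, adjusted p = 0.235), Spint1 (-0.58 ± 0.14, adjusted p = 0.332) and Dsg2 (-0.43 ± 0.08, adjusted p = 0.125). Dsp in older pituitary had the opposite sign (0.50 ± 0.12, adjusted p = 0.121). Several 200H calls were lost when 1 library was left out. In young 200H pituitary the call of Crb3 was lost without WT replicate 1, of Marveld2 without WT replicate 2, of Pkp2 without the unnumbered WT library, of F11r without WT replicate 1 or 2, and of Dsp without any one WT library or 200H replicate 4 (highest adjusted p = 0.0589, 0.0701, 0.0853, 0.0983 and 0.148). In older 200H pituitary the call of Tjp3 was lost without 200H replicate 4, of Prss8 without 200H replicate 4 or WT replicate 2, and of Cldn4 without 200H replicate 4 or WT replicate 2 or 3 (highest adjusted p = 0.0560, 0.0653 and 0.0767). There the call of Pkp2 was lost without 200H replicate 1 or 3 or WT replicate 2 or 4, and that of Marveld3 without 200H replicate 1, 3 or 4 or WT replicate 1 (highest adjusted p = 0.0575 and 0.0771). With total counts alone the 200H calls of Dsp, F11r and Pkp2 in young and of Pkp2 and Marveld3 in older pituitary were lost as well. Side by side, the log2 fold changes against WT in 200H and 200M were -1.56 and -2.13 for Spint1, -1.36 and -1.78 for Dsg2, -1.48 and -1.58 for Llgl2, and -2.69 and -2.61 for Cldn23 in young pituitary.

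**Figure D3:**
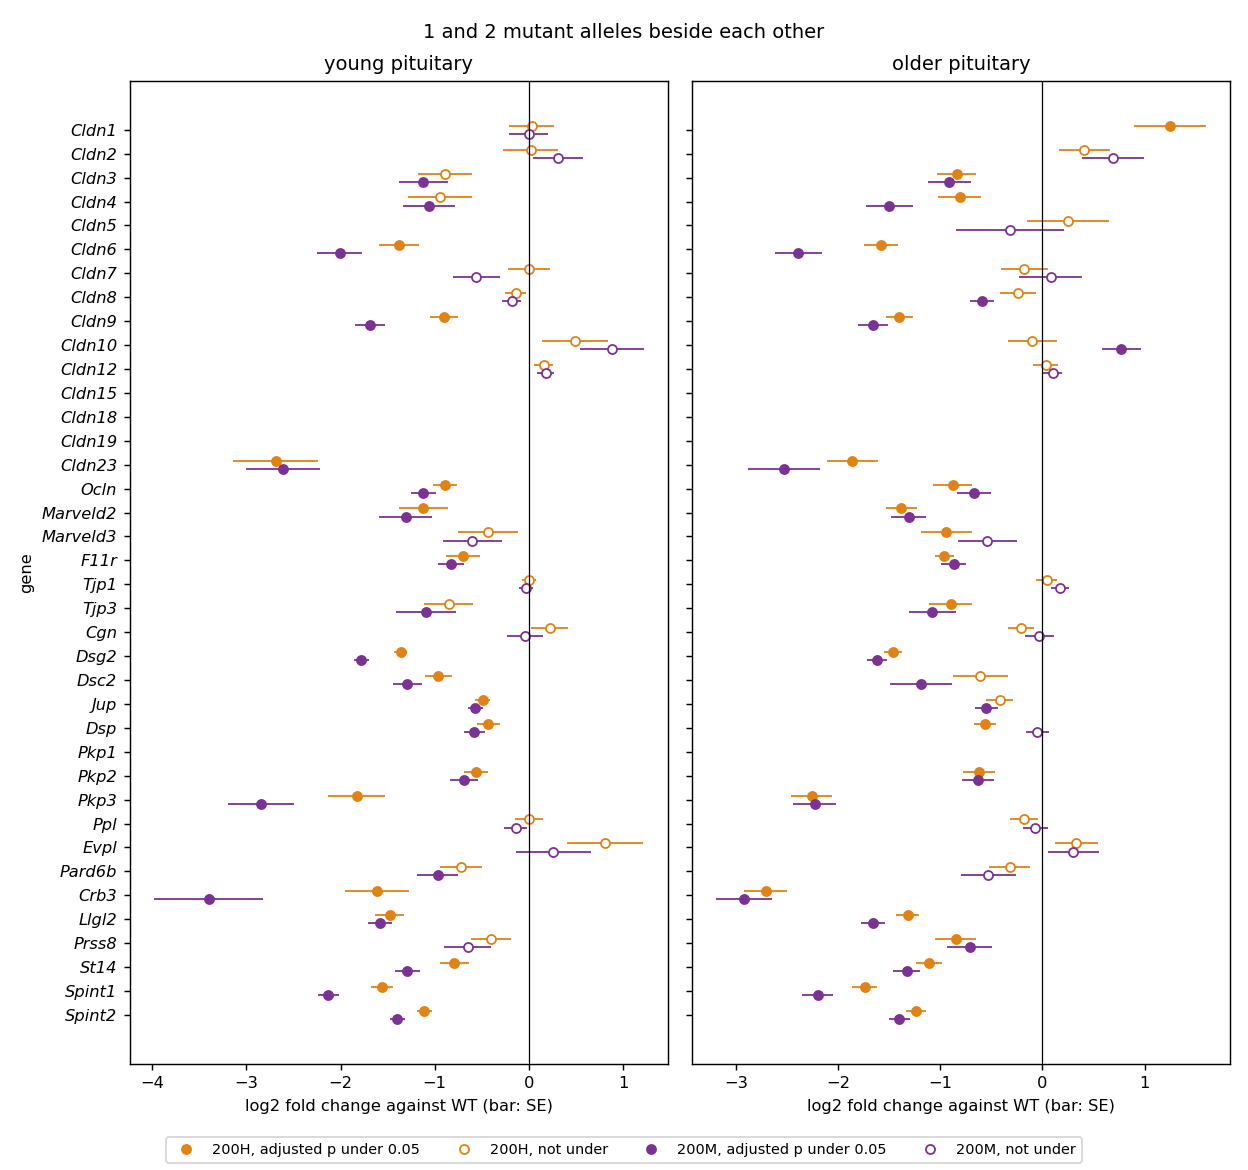
Log2 fold change against WT (horizontal axis, bars show the SE) of each gene in 200H and 200M pituitary, young on the left and older on the right, filled where the adjusted p was under 0.05. In young pituitary the 200M point lies left of the 200H point for most lowered genes, yet the direct comparison of the genotypes passed for 0 genes.

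Most of the lowered genes were shared between the cohorts. Of the 21 genes lower in young and the 21 lower in older 200M pituitary, 19 were the same, which is 90.5% of each list. Over all genes, 862 of the 1820 lower in young and the 1437 lower in older 200M pituitary were shared, 47.4% and 60.0% of the lists. In 200H, 15 were shared, 88.2% of the 17 young and 75.0% of the 20 older genes, beside 36.8% and 49.5% over all genes. Dsp and Pard6b were lower in young 200M pituitary alone, and Cldn8 and Prss8 in older 200M pituitary alone. The interaction of 200M with cohort, however, called 0 of the 34 genes tested by edgeR, beside 0.0273% of all genes, with 3 of the 34 at an unadjusted p under 0.05. DESeq2 also called 0, but it gave no adjusted p for members such as Cldn3, Cldn4 and Cldn6. It could not have called these, so its count is no second test of them. For Dsp the older minus young difference was 0.47 ± 0.16 (adjusted p = 0.581). Cohort goes together with age, breeding, library chemistry and counting method, which cannot be told apart.

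In hypothalamus 0 of the 38 genes passed edgeR's test in any comparison. The filter on low counts left 17 of the 38 genes in young and 24 in older 200M against WT, and the others had too few counts for the test. In the comparisons of 200M with WT, 200H with WT and 200M with 200H there were 0, 1 and 0 at an unadjusted p under 0.05 in young and 6, 2 and 2 in older hypothalamus. The same held for 5.65%, 3.93% and 4.60% of all genes in young and 18.1%, 2.80% and 19.5% in older hypothalamus. DESeq2 called Cldn5 in older 200M against WT and Cldn10 in older 200M against 200H, where it called 4.77% and 7.10% of all genes. In these 3 comparisons edgeR called 0.0200%, 0.0202% and 0% of all genes in young and 0.00622%, 0% and 0% in older hypothalamus. Genes lowered in pituitary had WT levels here of, for example, 0.820 CPM (Crb3) and 0.864 CPM (Llgl2) in older hypothalamus. Spint2, expressed at 69.7 ± 6.67 CPM in older WT and 88.7 ± 20.9 CPM in older 200M hypothalamus, had a log2 change of 0.36 ± 0.14 (adjusted p = 0.214), and Dsg2 of -0.27 ± 0.18 (adjusted p = 0.454). Cldn5, the claudin of the blood-brain barrier, was at 29.3, 20.6, 23.1 and 31.8 CPM in older WT, 43.1, 37.5, 23.6 and 35.3 CPM in 200H and 34.5, 32.1 and 47.7 CPM in 200M hypothalamus. All 3 200M libraries were above the WT libraries, but edgeR gave 0.55 ± 0.16 with an adjusted p of 0.136 and DESeq2 called it (adjusted p = 0.0385). The summed level of 8 endothelial markers in these groups was 183 to 213 CPM in WT and 160 to 222 CPM in 200M. In young hypothalamus Cldn5 had 0.17 ± 0.40 (adjusted p = 0.962). Tjp1, Cldn12 and Cldn10, all well expressed in hypothalamus, had log2 changes in 200M of -0.0042 ± 0.07, -0.07 ± 0.10 and 0.14 ± 0.22 in young females.

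In ovary, too, 0 of the 38 genes passed edgeR's test in any comparison, with 33 genes tested in young and 33 in older 200M ovary, 4 and 2 at an unadjusted p under 0.05 (16.2% and 16.5% of all genes), and 2.58% and 2.71% of all genes called. In 200H against WT 0 and 1 had an unadjusted p under 0.05 (7.05% and 6.59% of all genes), with 0.00510% and 0% of all genes called. In 200M against 200H it was 0 and 1 (3.36% and 13.0%), with 0% and 1.61% of all genes called. DESeq2 called 1 gene in each 200M comparison with WT, Dsg2 in young and Cldn18 in older ovary, beside 4.07% and 6.65% of all genes, and 0 in the other ovary comparisons. Dsg2 was, in the young cohort, at 27.2, 24.9, 23.9 and 29.9 CPM in WT, 16.4, 26.2, 24.4 and 25.0 CPM in 200H and 19.7, 20.9, 19.2 and 13.8 CPM in 200M. The 200M libraries were all below WT, with a log2 change of -0.51 ± 0.13 (adjusted p = 0.0552). The call was made by DESeq2 (adjusted p = 0.0203), by edgeR without 200M replicate 2 (adjusted p = 0.0252) and by edgeR with the oviduct marker sum as a covariate, an alternative chosen after seeing the data (-0.43, adjusted p = 0.0304). Of 5 markers of the ovarian surface and mesothelium, 2 were lower in young 200M ovary, with sums of 100 to 129 CPM in WT and 64.0 to 93.2 CPM in 200M, and their part in the Dsg2 values was not tested. Dsc2 was -0.55 ± 0.16 (adjusted p = 0.0953).

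In older ovary several members were highest in the libraries with the highest oviduct marker sums. These 6 genes, which mark the epithelium of the tube next to the ovary, summed to 835, 7.77, 6.84 and 7.39 CPM in the 4 older WT libraries, 8.76, 11, 403 and 3288 CPM in 200H and 323, 26.6, 3520 and 329 CPM in 200M, in order of replicate number. Cldn3 was at 22.8, 4.96, 3.38 and 6.57 CPM in WT, 2.40, 3.49, 9.71 and 43.4 CPM in 200H and 5.13, 3.12, 90.2 and 3.18 CPM in 200M in the same order, and the highest library of each genotype by Cldn3 was also the highest by the markers. Spint1 was at 23.6, 4.08, 4.65 and 6.24 CPM in WT, 2.49, 3.49, 9.78 and 48.5 CPM in 200H and 9.5, 3.24, 61.0 and 8.34 CPM in 200M, and Cldn7 at 21.7, 1.68, 1.46 and 3.04 CPM in WT, 0.184, 0.472, 3.21 and 34.4 CPM in 200H and 5.90, 1.56, 54.1 and 5.08 CPM in 200M. Positive estimates in older 200M ovary, such as 1.40 ± 1.15 for Cldn3, 1.07 ± 0.91 for Spint1 and 1.42 ± 0.89 for Prss8, carried large standard errors (adjusted p = 0.559, 0.573 and 0.452). In young ovary the marker sums were 272 to 671 CPM in WT, 23.0 to 700 in 200H and 26.4 to 671 in 200M. Cldn18 did not reach the count filter of edgeR in older 200M ovary, at 3.42, 0.801, 0.365 and 1.64 CPM in WT, 2.67, 50.0, 0.342 and 0.335 CPM in 200H, with 1 library far above the others, and 0.109, 0, 0 and 0.152 CPM in 200M. The part of oviduct tissue in these values was not tested further.

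**Figure D4:**
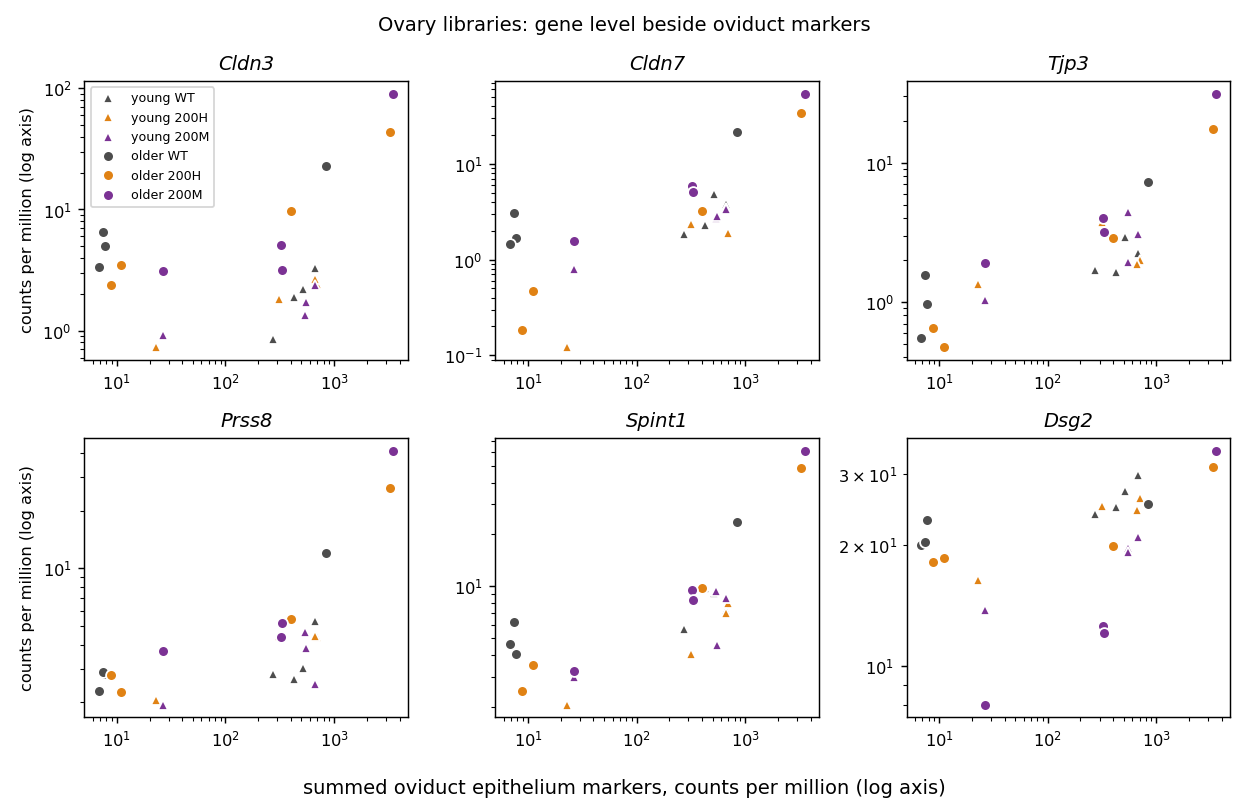
Level of 6 members in CPM (vertical log axes) against the summed oviduct epithelium markers (horizontal log axis) in each of 24 ovary libraries, coloured by genotype, triangles young and circles older. For Cldn3, Cldn7, Tjp3, Prss8 and Spint1 the 3 older libraries with the highest marker sums are also the 3 highest.

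An interaction term asked whether the 200M change against WT depended on the tissue. The pituitary change was more negative than that in hypothalamus for 7 of 33 genes tested in young and 19 of 34 in older females, beside 3.88% and 7.08% of all genes. It was more negative than that in ovary for 16 of 37 in young and 4 of 35 in older females, beside 4.45% and 2.48% of all genes. In the opposite direction there were 0 genes in each. Spint2 and Llgl2 differed in all 4, with pituitary minus hypothalamus differences for Spint2 of -1.53 ± 0.20 and -1.75 ± 0.18 and pituitary minus ovary differences of -1.25 ± 0.18 and -2.14 ± 0.51 in young and older females (adjusted p = 3.97e-06, 3.75e-06, 8.94e-05 and 0.0259). Of the 7 genes that differed between young pituitary and hypothalamus, 1 (Llgl2) had too few hypothalamic counts to be tested there alone. Of the 19 that differed between older pituitary and hypothalamus this held for 6 (Cldn3, Cldn4, Cldn6, Cldn9, Cldn23 and St14), and between young pituitary and ovary for 4 of the 16 (Cldn6, Cldn9, Cldn23 and Crb3), so their differences rest on few counts in the second tissue. In older ovary, whose libraries differed widely in oviduct markers, the 200M estimates of the 2 protease inhibitor genes were positive, at 0.76 and 1.07. The part of oviduct tissue in the older pituitary minus ovary differences was not tested. The older pituitary minus ovary count was 9 without ovary WT replicate 1 or ovary 200M replicate 2, 2 without pituitary 200M replicate 1, pituitary WT replicate 2 or ovary WT replicate 2 or 3, and 1 without pituitary 200M replicate 2 or 3.

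The WT levels show in which tissue each gene had its highest CPM. These CPM were scaled within each tissue and cohort and not between tissues. In WT pituitary the 8 pituitary markers alone summed to 161154 to 184712 CPM in young and 287032 to 330224 CPM in older females. This leaves less of the total for other genes there. Older ovary was also counted with featureCounts, and older pituitary and hypothalamus with HTSeq. The part of either point in the order of tissues was not tested. Divided by exon length, which allows genes to be compared within a library type, Spint2 was the highest member in older WT pituitary at 76.7 ± 8.61 CPM per kb, followed by Cldn9 at 40.0 ± 6.46 and Spint1 at 28.7 ± 4.81. In young WT pituitary the order began with Cldn8 at 20.5 ± 2.22, Tjp1 at 20.2 ± 1.22 and Spint2 at 19.0 ± 0.416 CPM per kb. Of the 38 genes, 21 had their highest mean CPM in young pituitary and 20 in older pituitary, 4 in hypothalamus in each cohort, and 13 and 14 in ovary. Pituitary libraries were all above those of both other tissues for 16 of the 21 and 14 of the 20. The pituitary set included Cldn3, Cldn4, Cldn6, Cldn8, Cldn9, Cldn23, Ocln, Tjp3, Dsg2, Dsc2, Pkp3, Crb3, Llgl2, St14, Spint1 and Spint2 in both cohorts. Cldn10, Cldn12, Cldn19 and Evpl were highest in hypothalamus in both, and Cldn1, Cldn2, Cldn5, Cldn15, Cldn18, F11r, Tjp1, Cgn, Jup, Dsp, Pkp1, Pkp2 and Pard6b in ovary. Dsp, for example, was at 120 ± 22.2 CPM in young WT ovary, 27.4 ± 1.94 in pituitary and 2.38 ± 0.656 in hypothalamus, and Tjp1 at 359 ± 11.4, 157 ± 9.52 and 194 ± 12.9 CPM. Cldn5 stood at 26.2 ± 5.22 CPM in older and 3.10 ± 1.68 CPM in young WT hypothalamus and 52.0 ± 10.9 and 3.73 ± 0.709 CPM in ovary, where age and library chemistry cannot be told apart. The summed WT level of the 38 genes was 833 CPM in young and 1191 CPM in older pituitary, 370 and 461 CPM in hypothalamus, and 906 and 1184 CPM in ovary.

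**Figure D5:**
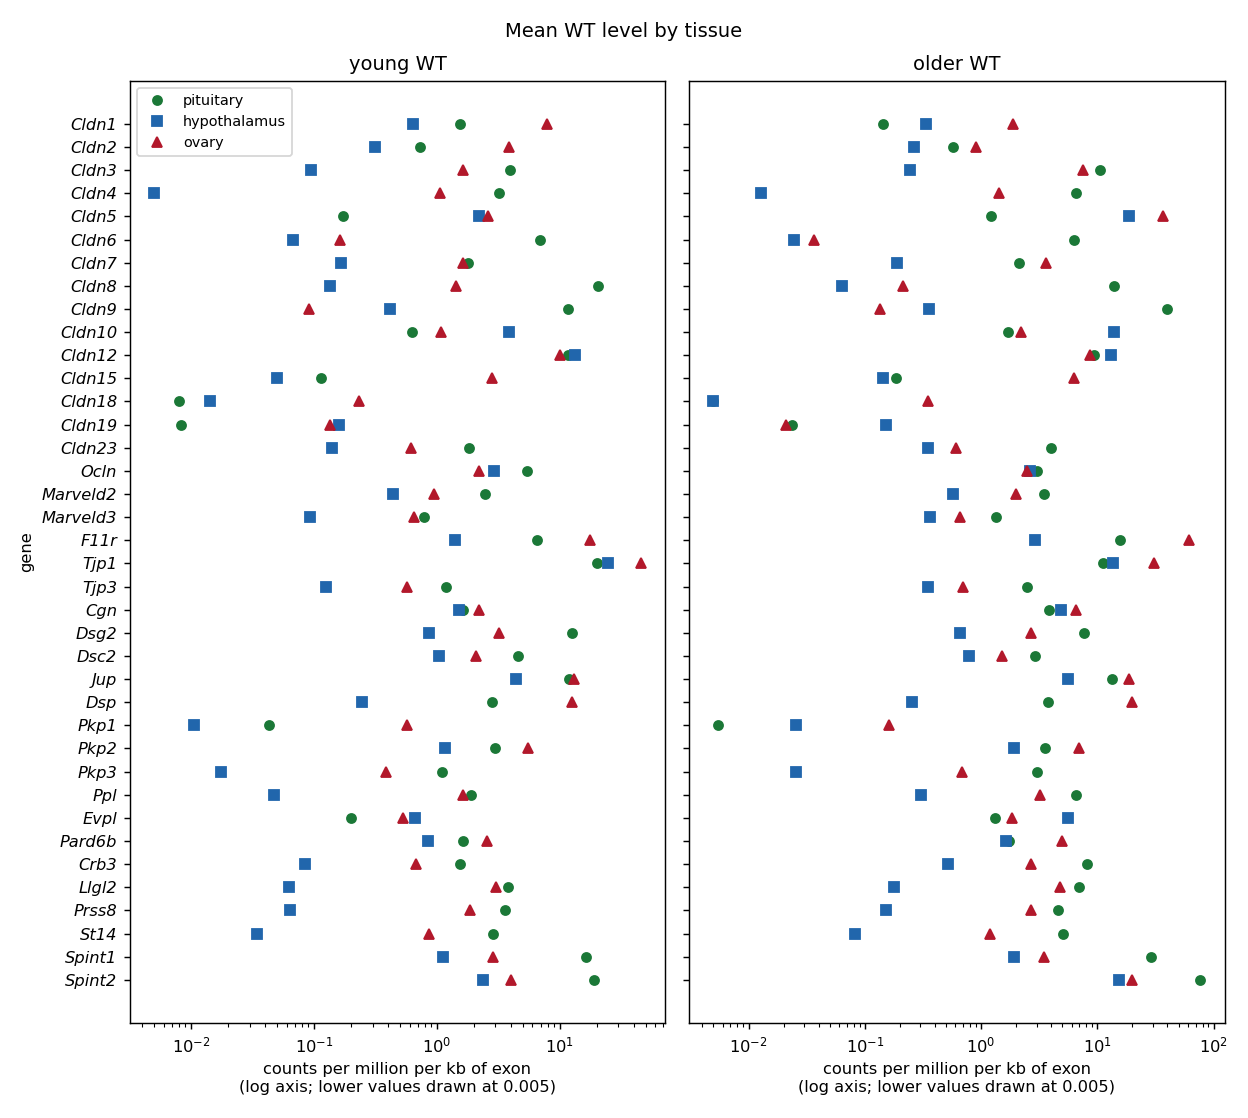
Mean WT level of each gene in CPM per kb of exon (horizontal log axis, values under 0.005 drawn there) in pituitary, hypothalamus and ovary, young on the left and older on the right. On this scale, which is not adjusted between tissues, genes such as Cldn6, Cldn9, Crb3 and Pkp3 are highest in pituitary. Cldn10 and Evpl are highest in hypothalamus and Dsp in ovary.

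A wider list of 64 other genes of the tight junction, desmosome, polarity complexes and epithelial proteases went in both directions. In young 200M pituitary 41 of them were tested, 10 were lower and 9 higher (10.0% and 11.5% of all genes), and in older 200M pituitary 42 were tested, 9 were lower and 8 higher (9.77% and 11.7% of all genes), with median log2 changes of -0.03 and 0.10. Of the 14 called in both cohorts, 8 fell in both and 6 rose in both. The 6 with the largest young changes all fell. They were Lsr, the lipolysis-stimulated receptor that marks tricellular junctions (-2.85 ± 0.15 in young and -3.0 ± 0.22 in older 200M), F2rl1, which encodes the protease-activated receptor PAR-2 (-2.74 ± 0.24 and -3.02 ± 0.27), Ildr1, a relative of Lsr (-1.86 ± 0.11 and -1.85 ± 0.16), Perp, a desmosomal tetraspan protein (-1.37 ± 0.10 and -1.19 ± 0.24), Patj, a Crumbs complex scaffold (-1.12 ± 0.07 and -0.70 ± 0.09), and Crb1 (-0.79 ± 0.12 and -0.78 ± 0.16). Adjusted p-values ranged up to 0.00457 among these. The other 2 that fell were Marveld1 (-0.58 ± 0.12 and -0.76 ± 0.12) and Ybx3 (-0.45 ± 0.09 and -0.62 ± 0.10). Those that rose were the junctional adhesion molecules Jam3 (0.77 ± 0.13 and 0.68 ± 0.12) and Jam2 (0.45 ± 0.13 and 0.74 ± 0.13), Ildr2, another relative of Lsr (0.61 ± 0.11 and 0.77 ± 0.13), the scaffold Mpdz (0.42 ± 0.10 and 0.49 ± 0.11), Amotl1 (0.29 ± 0.07 and 0.45 ± 0.09), and Cldn11, the claudin of myelin and of testis (0.62 ± 0.15 and 0.77 ± 0.25, adjusted p = 0.00703 and 0.0482).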

How the data were processed

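RNA-seq counts per gene were analysed for 69 libraries of pituitary, hypothalamus and ovary. The deposited values are raw counts that the authors made with STAR 2.7.1a on mm10 (GRCm38), counting older pituitary and hypothalamus with HTSeq 0.9.1 and older ovary and all young tissues with featureCounts. Older libraries were poly(A)-selected, unstranded and single-end, and young libraries were rRNA-depleted, stranded and paired-end. The deposited tables also hold the authors' fold changes, p-values and normalised values, which were not used, and 3 count columns were not used. The 66 columns that stand in more than 1 table had 0 differing values, and no pair of libraries of a group agreed within sampling noise (lowest chi-square per degree of freedom 1.87 over 99 pairs). P-values measure the spread between libraries. The numbers of young WT pituitary libraries are taken from the labels, and 1 of them has no usable replicate number and is given last.

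Each comparison was fitted for each tissue and cohort on the 2 genotypes compared, with edgeR 4.0.16 in R 4.3.3 (limma 3.58.1), using filterByExpr, TMM factors and the quasi-likelihood test, two-sided, with Benjamini-Hochberg adjustment over all genes tested and a threshold of 0.05. The SE is the log2 fold change divided by the square root of F. CPM were scaled with TMM factors computed within each tissue and cohort. Differences between tissues or cohorts were tested as interactions. The tissue interactions treated all libraries as independent, and whether libraries of 2 tissues came from the same mouse was not checked. The fits were tested on simulated counts with the same spread for all genes and changes planted only in genes with enough counts. That setting says little about genes with few counts or groups whose libraries differ widely. Alternatives were DESeq2 1.42.0, relative log expression factors, total counts alone, no filter, all genotypes in 1 fit, the replicate block and leaving out each library. The 38 genes and the other lists were chosen with earlier results of these data known. Values in every library were given for genes called in both 200M pituitary comparisons that had the lowest or highest log2 fold change of their role, and of 64 related genes the 6 with the largest change among those called in both cohorts, plus the others called in both. 1 gene of the wider list is not reported here. Where genes outside this rule are given library by library, they were chosen after their values were seen.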

Additional observations from a re-analysis of the deposited data

Results flagged for a closer look

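In 5 of the 56 pituitary groups of 4 libraries checked, over the 14 genes given library by library, 1 library stood far from the other 3. In young 200H pituitary replicate 3 was at 1.21 CPM for Cldn23, 5.06 CPM for Cldn4 and 3.44 CPM for Tjp3, and replicate 1 was at 4.87 CPM for Marveld2. In young 200M pituitary replicate 2 was at 10.5 CPM for F11r, a small gap that was far only beside the narrow spread of the other libraries. Chance alone marks about 1 in 20 such groups.

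For 46 values the 200M change against WT differed between 2 tissues by the interaction test of edgeR, and all 46 were more negative in pituitary. Differences are given on the log2 scale. Young pituitary minus young hypothalamus was -1.29 for Ocln, -1.50 for Dsg2, -1.32 for Dsc2, -0.58 for Jup, -3.17 for Llgl2, -1.97 for Spint1 and -1.53 for Spint2, where Llgl2 had too few hypothalamic counts to be tested there alone. Older pituitary minus older hypothalamus was -2.03 for Cldn3, -3.62 for Cldn4, -3.52 for Cldn6, -2.62 for Cldn9, -2.76 for Cldn23, -0.77 for Ocln, -1.25 for Marveld2, -1.24 for Marveld3, -1.34 for F11r, -1.51 for Tjp3, -1.35 for Dsg2, -1.36 for Dsc2, -0.64 for Jup, -0.74 for Pkp2, -2.80 for Crb3, -2.35 for Llgl2, -1.98 for St14, -2.62 for Spint1 and -1.75 for Spint2. Young pituitary minus young ovary was -3.10 for Cldn6, -3.20 for Cldn9, -2.63 for Cldn23, -1.46 for Marveld2, -0.71 for F11r, -1.27 for Dsg2, -0.75 for Dsc2, -0.60 for Jup, -0.59 for Dsp, -0.64 for Pkp2, -2.08 for Pkp3, -1.0 for Pard6b, -2.70 for Crb3, -1.56 for Llgl2, -1.85 for Spint1 and -1.25 for Spint2. Older pituitary minus older ovary was -1.19 for Marveld2, -3.44 for Crb3, -2.23 for Llgl2 and -2.14 for Spint2, where the older ovary libraries differed widely in oviduct markers. Cldn3, Cldn4, Cldn6, Cldn9, Cldn23 and St14 had too few counts in older hypothalamus to be tested there alone. The same held for Cldn6, Cldn9, Cldn23 and Crb3 in young ovary. The differences of these genes from those tissues rest on few counts in the second tissue.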

How the results depend on the processing

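None of the results changed sign while called, under any alternative. The 4 pituitary counts of changed genes, 21 in young 200M, 17 in young 200H, 22 in older 200M and 21 in older 200H, stayed within 1.5 times their value under every alternative. When single libraries were left out they ran from 19 to 22, 14 to 21, 17 to 23 and 16 to 21. For 200M against 200H, with 0 genes otherwise, young pituitary gave 1 by DESeq2, 3 with no filter and 1 with all genotypes in 1 fit, and older pituitary gave 3 with no filter and 0 to 3 without single libraries (3 without 200H replicate 2: Cldn10, Dsc2 and Dsp). In older hypothalamus, with 0 genes otherwise, 200M against WT gave 1 by DESeq2 and 2 with no filter, 200H against WT gave 1 with no filter, and 200M against 200H gave 1 by DESeq2 and 2 with no filter. In ovary, with 0 otherwise, young 200M against WT gave 1 by DESeq2, 3 with no filter, 1 with the oviduct marker covariate (chosen after seeing the data) and 0 to 2 without single libraries (2 without 200M replicate 2: Dsg2 and Cldn2). Older 200M against WT gave 1 by DESeq2, 1 with no filter and 0 to 1 without single libraries, and older 200M against 200H gave 0 to 1 (without 200M replicate 3, Dsg2 in the first and F11r in the second). The tissue interactions ran from 5 to 9 for young pituitary against hypothalamus (7 with all libraries), 13 to 18 for older pituitary against hypothalamus (19), 11 to 17 for young pituitary against ovary (16) and 1 to 9 for older pituitary against ovary (4). The ovary interaction with cohort gave 1 gene by DESeq2, Cldn18. The summed WT level moved to 786 CPM in young and 1101 CPM in older pituitary with total counts alone. Without single libraries it ran from 827 to 838 and 1167 to 1220 CPM in pituitary, 365 to 375 and 453 to 472 CPM in hypothalamus, and 887 to 922 and 1120 to 1224 CPM in ovary, young and older. The causes were not tested.

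With the replicate number as a block the counts were 19 in young 200M, 16 in young 200H, 22 in older 200M and 19 in older 200H pituitary. Under the block the adjusted p was 0.0811 for Cldn3, 0.0671 for Cldn4 and 0.0623 for Pkp2 in young 200M, and 0.482 for Dsp and 0.0924 for Pkp2 in young 200H and 0.0700 for Marveld3 and 0.0602 for Cldn1 in older 200H pituitary. Same-numbered libraries of different genotypes showed no clear pairing within a tissue and cohort, with few pairs in each comparison. Their correlations ran from -0.61 to 0.44, and in 0 of 18 comparisons were all pairs above 0.1. Low counts limit Crb3, Pkp3 and Cldn23 in young pituitary and most of the genes in hypothalamus.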
